A study of Mus musculus with 8 samples.

Results

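Fibroblast growth factors (FGFs) are secreted proteins that bind FGF receptors on the cell surface, and 6 ligand genes (Fgf4, Fgf7, Fgf8, Fgf10, Fgf15 and Fgf17) and the 4 receptor genes (Fgfr1, Fgfr2, Fgfr3 and Fgfr4) were followed through 4 culture conditions of N33 mouse ESCs. These 10 genes were taken by symbol from the 20278 genes listed in the 8 libraries, and all 10 passed the filter on low counts, which kept 15287 genes. Fgf7, Fgf8 and Fgf15 passed it only through the libraries in which they were high (Fgf8 through the F libraries alone), and Fgfr3 was under the filter in NB2i, so counts over the 10 genes are given as a description, each followed by the count over the 6 genes with at least 10 counts in every library.

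An FGF ligand, held in place by heparan sulphate on the cell surface, joins a pair of receptors, and the receptors then phosphorylate each other and start the relay from Ras through Raf and Mek to Erk. In mouse ESCs the ligand Fgf4 is made by the cells themselves, and the Erk signal it starts readies the cells for differentiation. In the blastocyst the same signal steers inner cells toward primitive endoderm. The inhibitor pair known as 2i blocks this relay at Mek with PD0325901 and blocks Gsk3β with CHIR99021, which raises Wnt/β-catenin activity.

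N33 is 1 ESC line, derived from C57BL/6 mice by its labels (C57BL/6J by the methods of the study), and each condition had 2 biological duplicates. The cells labelled N33_G (called −F here) grew in medium with 20% FBS on gelatin without feeders, and those labelled N33_F (F) grew in the same serum medium on feeders, which are mouse embryonic fibroblasts stopped from dividing with mitomycin C. Those labelled N33_F2i (F2i) had serum, feeders and 2i, at inhibitor concentrations that the labels do not give. Those labelled N33_NB2i (NB2i) had N2B27 medium with 3 µM CHIR99021 and 1 µM PD0325901 on poly-L-ornithine and laminin, with neither feeders nor serum, so that NB2i differs from F2i in feeders, serum, base medium and coating at once and these cannot be told apart. LIF at 1000 U/ml was present in all conditions, and ESCs from feeder cultures were separated from feeders by differential adherence before RNA was taken.

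Each library held 20129641 to 20664488 expected counts over 17114 to 18111 genes. All 9 ESC markers, among them Pou5f1, Sox2 and Nanog, were detected in every library. Levels are given in FPKM (fragments per kilobase of transcript, scaled to the number of mapped reads). Single ESC markers moved in both directions: on average Utf1 was at 477.77 FPKM in −F and 81.55 in F2i, and Tbx3 at 6.96 and 104.845. The 9 markers summed to between 3500 and 4340 FPKM. Dppa5a was the largest part of this sum, at 1846 FPKM on average in −F and 2276 in F2i. The 18 fibroblast markers, in contrast, summed to 54.6 and 52.5 FPKM in −F, 344 and 354 in F, 760 and 749 in F2i, and 8.57 and 8.13 in NB2i, where Dcn, Lum, Postn, Vcam1 and Fap were at 0 in both libraries. Fibroblast marker RNA was thus highest in F2i and F, and because the libraries are bulk RNA, fewer cells of a type and less RNA per cell cannot be told apart. The 12 primitive endoderm markers summed to 77.7 and 79.2 FPKM in −F, 95.5 and 98.2 in F, 66 and 62.5 in F2i, and 48.3 and 46.5 in NB2i.

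Among the ligands Fgf4 was by far the highest in every condition, and among the receptors it was Fgfr1. In 2i Fgf4 and Fgf10 were higher, while Fgf15, Fgf17, Fgfr2 and Fgfr3 were lower than in serum with feeders. Fgfr2 and Fgfr3 were lower again in NB2i, where Fgfr1 made up 95.7% ± 0.71 (SD, n = 2) of the summed receptor FPKM. Feeders in serum went with more Fgf10 and Fgf7 RNA and left Fgfr2, Fgfr3 and Fgfr4 without a difference past the test.

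**Figure D1:**
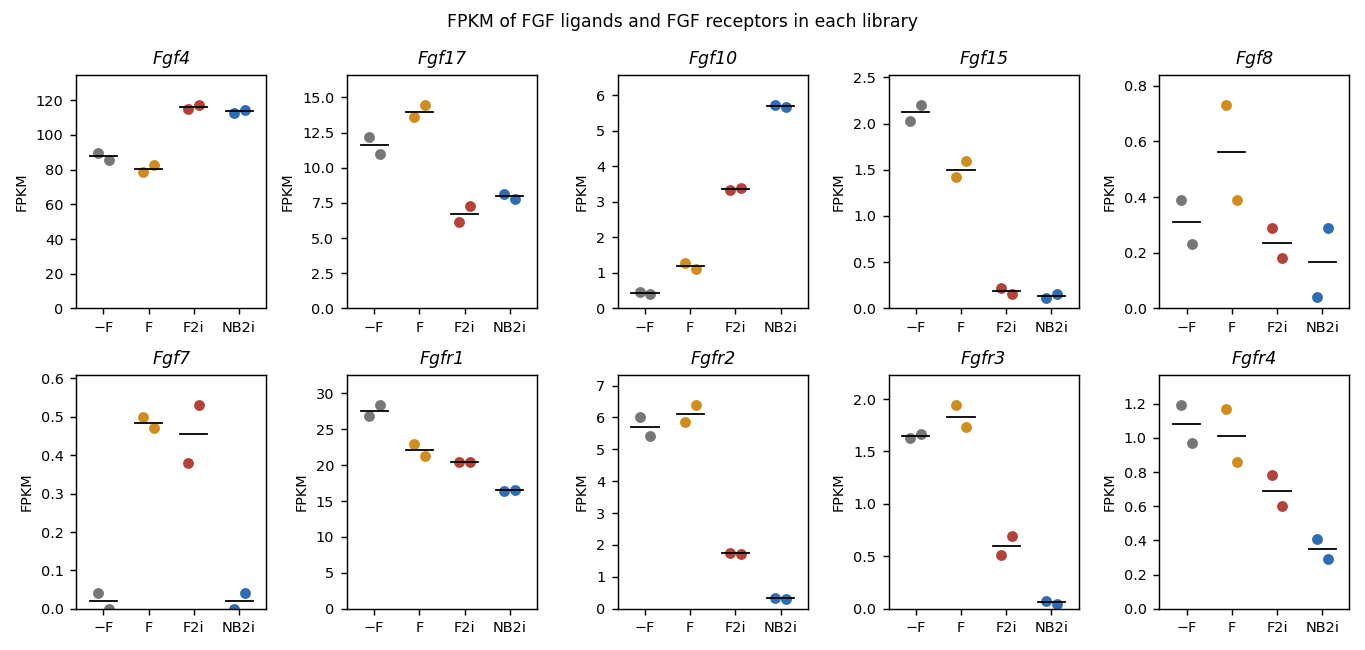
FPKM of each ligand and receptor (vertical axis, starting at 0 and scaled for each gene) in the 4 culture conditions (horizontal axis). Each point is 1 library and each line the mean of 2 libraries; Fgf10 stood highest in NB2i, at 5.73 and 5.68 FPKM, where Fgfr2 stood lowest, at 0.35 and 0.32.

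The stretches upstream of 4 of the 6 genes with an entry in the promoter table are shown. Fgf4 was the highest ligand, Fgf10 rose at every step from −F to NB2i, and Fgfr2 and Fgfr3 were the receptors with the steepest falls. Each is the 250 bases before the RefSeq start of the gene in GRCm38.p6 (the assembly behind mm10), written 5′ to 3′ on the gene's strand, with GC boxes (GGGCGG, or CCGCCC on the other strand, the core recognised by Sp1-type zinc finger proteins) in capitals. Fgf4 lies on the plus strand with this stretch at chr7:144861136-144861385, Fgf10 on the plus strand at chr13:118714449-118714698, Fgfr2 on the minus strand at chr7:130266809-130267058, and Fgfr3 on the plus strand at chr5:33721474-33721723.
Fgf4: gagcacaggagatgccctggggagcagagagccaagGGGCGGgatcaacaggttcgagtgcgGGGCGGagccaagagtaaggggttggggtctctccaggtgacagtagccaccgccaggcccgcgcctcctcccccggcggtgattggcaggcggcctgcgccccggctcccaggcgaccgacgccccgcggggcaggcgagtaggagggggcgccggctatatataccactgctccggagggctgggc
Fgf10: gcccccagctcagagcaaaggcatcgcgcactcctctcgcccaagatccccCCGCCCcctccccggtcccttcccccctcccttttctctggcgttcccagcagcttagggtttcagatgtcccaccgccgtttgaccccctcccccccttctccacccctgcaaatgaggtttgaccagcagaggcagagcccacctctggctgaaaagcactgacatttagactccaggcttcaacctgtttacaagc
Fgfr2: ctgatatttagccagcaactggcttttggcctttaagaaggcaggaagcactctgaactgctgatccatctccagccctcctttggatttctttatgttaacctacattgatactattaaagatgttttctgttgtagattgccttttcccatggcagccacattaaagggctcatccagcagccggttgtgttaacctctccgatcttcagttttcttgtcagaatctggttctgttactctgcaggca
Fgfr3: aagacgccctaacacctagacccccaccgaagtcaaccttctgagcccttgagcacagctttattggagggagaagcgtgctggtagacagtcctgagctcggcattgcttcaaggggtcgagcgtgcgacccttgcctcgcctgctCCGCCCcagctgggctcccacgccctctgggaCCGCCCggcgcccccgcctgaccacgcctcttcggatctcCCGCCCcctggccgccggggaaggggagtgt

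Fgf4 held 2 GC boxes and 21 CpG sites in this stretch, Fgf10 held 1 and 8, and Fgfr3 held 3 and 19. Fgfr2 held no GC box and 2 CpG sites, fewer than the median of 6 over the 32841 RefSeq promoter entries of the same length, of which 32.7% held a GC box. Fgfr2 and Fgfr3, which fell together, thus differed in both counts. Both strands were also searched for TATAAA (in 12.4% of the entries), the ETS core CCGGAA (12%), the TCF/LEF letters CTTTGAT (3.21%) and the octamer ATGCAAA (4.13%), and none of these was found in the 4 stretches. Fgfr3 had a further start downstream.

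Fgf4 is the ligand that ESCs make in quantity, a target of Oct4 and Sox2, and its gene lies at chr7:144861386-144865245. It was at 89.78 and 85.5 FPKM in −F, 78.57 and 82.41 in F, 114.67 and 117.23 in F2i, and 112.64 and 114.58 in NB2i, which placed it between the 629th and the 975th highest gene of each library. Both conditions with 2i lay above both without it, with no overlap. Adding 2i on feeders raised Fgf4 by 47.9% (log2 fold change 0.57, standard error 0.043, adjusted p = 2.5e-10). F2i and NB2i, neighbours in the order of levels, did not differ past the test (log2 fold change −0.02 for NB2i against F2i, 95% interval −0.11 to 0.06, adjusted p = 0.64). F was lowest, and its difference from −F did not pass the test (−0.10, 95% interval −0.19 to −0.01, adjusted p = 0.07), although it did in 4 of the alternatives, with values from −0.135 to −0.114. Fgf4 made up 85.8% ± 0.32 of the summed FPKM of the 6 ligands in −F, 81.9% ± 0.22 in F, 91.4% ± 0.49 in F2i and 89.0% ± 0.16 in NB2i (SD, n = 2).

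Fgf17, a ligand of the same subfamily as Fgf8 and best known from the midbrain-hindbrain region, was second among the ligands in every condition. Its gene lies on the minus strand at chr14:70636203-70642268. The libraries held 12.2 and 11.01 FPKM in −F, 13.63 and 14.46 in F, 6.12 and 7.31 in F2i, and 8.15 and 7.77 in NB2i. The order was F, −F, NB2i and F2i with no overlap between conditions. With 2i on feeders Fgf17 fell by 50.9% (log2 fold change −1.03, standard error 0.091, adjusted p = 3.6e-09). Smaller steps, 0.30 for F against −F (standard error 0.083, adjusted p = 0.0064) and 0.25 for NB2i against F2i (standard error 0.10, adjusted p = 0.033), each lost the test under several alternatives. Without NB2i replicate 1 the second was 0.214, and without F2i replicate 1 it was 0.125, and neither passed.

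Fgf10 signals from mesenchyme to epithelium in the growing lung and limb, and its gene lies at chr13:118714699-118792573. It was at 0.45 and 0.42 FPKM in −F, 1.27 and 1.12 in F, 3.35 and 3.38 in F2i, and 5.73 and 5.68 in NB2i. The conditions did not overlap, and every step up in this order passed the test. Log2 fold changes were 1.48 for F against −F (standard error 0.16, adjusted p = 1.3e-07), 1.53 for F2i against F (standard error 0.10, adjusted p = 2.9e-11) and 0.76 for NB2i against F2i (standard error 0.077, adjusted p = 2.1e-08), and NB2i was 13.7-fold above −F. Fibroblast marker RNA rose with Fgf10 from −F to F and from F to F2i, and its part in those steps was not tested. In NB2i, however, the fibroblast markers were at their lowest, 8.57 and 8.13 FPKM in sum, and Fgf10 was at its highest. The expected counts of Fgf10 were not whole in any library, because RSEM divided some reads between Fgf10 and other transcripts, so that its level is less certain than the small spread between replicates shows.

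Fgf15, the mouse counterpart of human FGF19 and a hormone-like ligand that needs β-Klotho, lies 31287 bases downstream of Fgf4 at chr7:144896532-144900953. It was at 2.03 and 2.2 FPKM in −F and 1.42 and 1.59 in F, and at 0.22 and 0.16 in F2i and 0.11 and 0.16 in NB2i. All serum libraries without 2i stood above all 2i libraries. On feeders it was 7.55-fold lower with 2i (log2 fold change −2.92, standard error 0.32, adjusted p = 7.7e-08), with 52 and 59 expected counts in F against 8 and 6 in F2i. Since Fgf15 passed the filter only through the serum libraries without 2i, its differences between these and the 2i libraries are given as a description. F2i and NB2i overlapped (95% interval of the log2 difference −1.60 to 0.62, adjusted p = 0.46), and F against −F did not pass the test (−0.47, adjusted p = 0.062), although it did under limma on log2(FPKM + 1), at −0.315.

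Fgf4 and Fgf15 thus moved in opposite directions with 2i although they are neighbours on chromosome 7, and the genes around them were looked at after this had been seen. Within 200 kb of Fgf4 lie Fgf3, which was at 0.54 and 0.61 FPKM in F and 1.37 and 1.03 in F2i, and Ccnd1, the gene of cyclin D1, at 46.1 ± 2.0 FPKM in F and 26.1 ± 0.80 in F2i (SD, n = 2). Ano1 was at 0.155 ± 0.0071 FPKM in F and 0.305 ± 0.092 in F2i, and LTO1 was at 4.79 ± 0.29 FPKM in F and 4.78 ± 0.37 in F2i. The genes of this stretch therefore differed among themselves in the direction of their values.

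Fgf8, a ligand that patterns the gastrulating embryo, limb and brain, rested on few reads. Its gene lies on the minus strand at chr19:45736491-45742941, and it had 9 and 5 expected counts in −F, 18 and 10 in F, 7 and 4 in F2i, and 1 and 7 in NB2i, which is 0.04 to 0.73 FPKM over all libraries. The conditions overlapped except that F lay above F2i and NB2i. Log2 fold changes were −1.75 for NB2i against F (95% interval −3.04 to −0.45) and −1.28 for F2i against F (95% interval −2.49 to −0.07), and the first was −0.945 without NB2i replicate 1. Since Fgf8 passed the filter only through its counts in F, these differences from F are given as a description. Between the other conditions the intervals were wide, such as −2.06 to 1.13 for NB2i against F2i.

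Fgf7, also named keratinocyte growth factor, is made by mesenchymal cells and acts on epithelium through the same form of Fgfr2 as Fgf10. Its gene lies at chr2:126034658-126091185. Expected counts were 2.02 and 0 in −F, 27 and 26.01 in F, 20.39 and 28.74 in F2i, and 0 and 2 in NB2i, or at most 0.53 FPKM. Both feeder conditions stood above both conditions without feeders. The ratio of summed counts was 26.5 for F over −F (exact 95% counting interval 6.99 to 225) and 24.9 for F2i over NB2i (6.54 to 212). Fgf7 passed the filter only through the libraries with feeders, so these ratios are a description. Intervals of this kind cover counting error only. F2i and F did not differ past the test (log2 fold change −0.06, 95% interval −0.78 to 0.65, adjusted p = 0.89). Of the 18 fibroblast markers, 17 rose in F against −F and 18 of 18 fell in NB2i against F2i, and 12 rose in F2i against F. Their part in the level of Fgf7 was not tested.

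**Figure D2:**
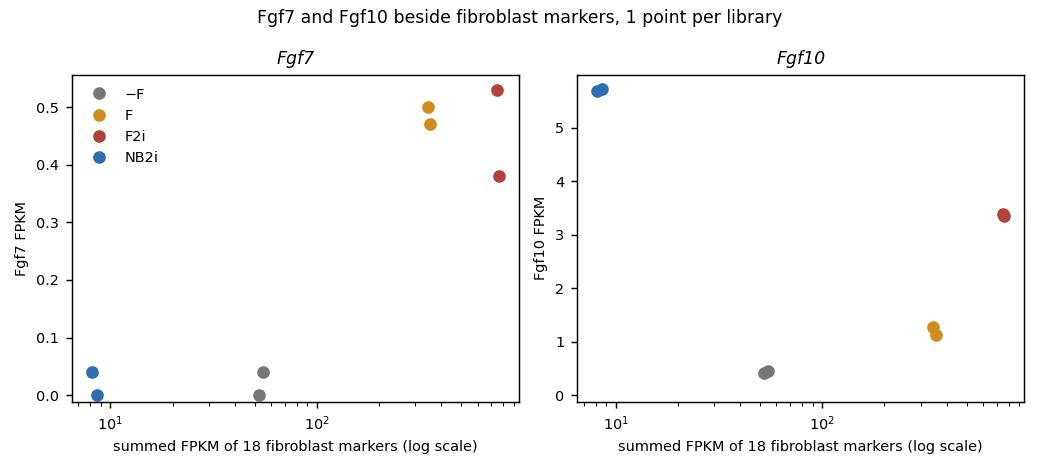
FPKM of Fgf7 (left) and Fgf10 (right) on the vertical axes against the summed FPKM of 18 fibroblast markers on a log axis, with 1 point per library coloured by condition. Fgf7 was at 0.38 to 0.53 FPKM in the 4 libraries with feeders and at 0 to 0.04 in the others; Fgf10 was highest, at 5.73 and 5.68, in the NB2i libraries, which had the least fibroblast marker RNA.

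Fgfr1 is the receptor through which Fgf4 mainly acts in ESCs, and its gene lies at chr8:25518759-25575718. It was at 26.9 and 28.32 FPKM in −F, 22.89 and 21.32 in F, 20.48 and 20.37 in F2i, and 16.34 and 16.57 in NB2i. The libraries of the conditions did not overlap and the order ran from −F down to NB2i, but F and F2i were neighbours that did not differ past the test (log2 fold change −0.09, 95% interval −0.19 to 0.01, adjusted p = 0.12). The other steps were small and passed it: −0.30 for F against −F (standard error 0.046, adjusted p = 2.2e-05) and −0.29 for NB2i against F2i (standard error 0.048, adjusted p = 1.9e-05). From −F to NB2i Fgfr1 fell by 37.6%.

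Fgfr2, the receptor that primitive endoderm cells raise in the blastocyst, changed far more. Its gene lies on the minus strand at chr7:130162451-130266808. The libraries held 6.01 and 5.42 FPKM in −F and 5.87 and 6.38 in F, then 1.76 and 1.72 in F2i and 0.35 and 0.32 in NB2i. F and −F overlapped (log2 fold change 0.13 for F against −F, 95% interval −0.01 to 0.28, adjusted p = 0.14), and both lay above F2i, which lay above NB2i. On feeders Fgfr2 was 3.42-fold lower with 2i (log2 fold change −1.77, standard error 0.085, adjusted p = 1.1e-13), and NB2i was 5.07-fold below F2i (−2.34, standard error 0.15, adjusted p = 1e-11). Of the 12 primitive endoderm markers, 10 rose and 0 fell in F against −F, where 21.7% of all genes rose. Fgfr2 did not differ past the test in that comparison. In F2i against F 9 of these markers fell and 1 rose, where 27.4% of all genes fell. In NB2i against F2i 7 fell and 2 rose, where 30.8% of all genes fell. The part of these markers in the level of Fgfr2 was not tested.

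Fgfr3, known for restraining bone growth, followed a like course at a lower level. Its gene lies at chr5:33721724-33737068. It was at 1.63 and 1.67 FPKM in −F, 1.94 and 1.73 in F, 0.51 and 0.69 in F2i, and 0.07 and 0.05 in NB2i, where 6.03 and 4.01 expected counts remained. F and −F did not overlap but did not differ past the test (log2 fold change 0.23, 95% interval −0.05 to 0.51, adjusted p = 0.18). Adding 2i on feeders lowered Fgfr3 by 66.7% (−1.59, standard error 0.16, adjusted p = 3.2e-08), and NB2i was 10-fold below F2i (−3.32, standard error 0.34, adjusted p = 2.1e-08). The annotation also lists a processed pseudogene, Fgfr3-ps, and the expected counts of Fgfr3 were not whole in any library, so that part of its reads were shared with other transcripts.

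Fgfr4, a receptor used in liver by Fgf15, was at 1.19 and 0.97 FPKM in −F, 1.17 and 0.86 in F, 0.78 and 0.6 in F2i, and 0.41 and 0.29 in NB2i. Its gene lies at chr13:55152818-55168759. F and −F overlapped, F2i lay below both, and NB2i lay below all others. The difference between F2i and F did not pass the test (log2 fold change −0.51, 95% interval −0.97 to −0.04, adjusted p = 0.06), but did with the replicate number as a block (−0.506, adjusted p = 0.038) and without F replicate 2 (−0.701, adjusted p = 0.028). NB2i against F2i passed it at 48.9% lower (−0.97, standard error 0.28, adjusted p = 0.0043), but at −0.773 without F2i replicate 1 and at −0.735 without NB2i replicate 2 it did not.

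Summed over the 4 receptors, FPKM was 36.1 ± 0.46 in −F, 31.1 ± 1.1 in F, 23.5 ± 0.11 in F2i and 17.2 ± 0.042 in NB2i (SD, n = 2), with no overlap between conditions. The makeup of this sum shifted with its size. Fgfr1 took 76.6% ± 1.8 of it in −F, 71.1% ± 1.0 in F, 87.1% ± 0.062 in F2i and 95.7% ± 0.71 in NB2i, while Fgfr2 took 15.9% ± 1.4, 19.7% ± 1.9, 7.42% ± 0.087 and 1.95% ± 0.13 in the same order. On expected counts in place of FPKM the Fgfr1 share was 78.0%, 72.5%, 88.2% and 96.4%. In F and F2i this lay further from the FPKM share than the SD between replicates. With 2 libraries in a condition an exact permutation test of such a sum or share cannot go below p = 0.333, so none was run.

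**Figure D3:**
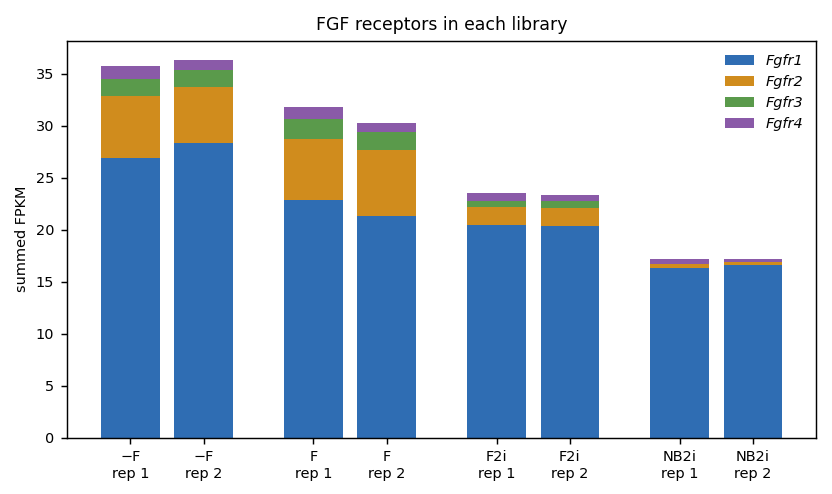
FPKM of the 4 receptors stacked for each library (vertical axis from 0), with 2 replicates (rep) per condition. The bars reach from 35.7 and 36.4 in −F down to 17.2 in both NB2i libraries, where nearly all that remains is Fgfr1.

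In F against −F, the comparison of feeders in serum, 2 of the 10 genes were called, that is, adjusted p under 0.05 and at least 2-fold. Both of these, Fgf7 and Fgf10, were ligands and were higher in F. Of all 15287 genes tested, 5.59% were called higher and 1.65% lower in this comparison. Of the 6 genes with at least 10 counts in every library, 1 was called. Counting every difference past the test whatever its size, 3 of the 10 rose and 1, Fgfr1, fell, while 21.7% of all genes rose and 18.5% fell. The median log2 fold change was 0.18 over the 10 genes and 0 over all genes.

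In F2i against F, the comparison of 2i on feeders in serum, 5 of the 10 genes were called: Fgf10 was higher, and Fgf15, Fgf17, Fgfr2 and Fgfr3 were lower. Of all genes tested 6.44% were called higher and 7% lower. Over the 6 genes with at least 10 counts in every library the count was 3. The median log2 fold change was −1.05 over the 4 receptors and −0.54 over the 6 ligands, beside 0 over all genes, and whatever the size 2 of the 10 rose and 4 fell, where 27.3% of all genes rose and 27.4% fell. The fibroblast marker sum was 760 and 749 FPKM in F2i against 344 and 354 in F, a rise led by collagens such as Col1a1, while Dcn, Lum, Twist2, Vcam1, Fap and Mmp2 did not differ past the test, and the part of these markers in the values was not tested.

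In NB2i against F2i, where feeders, serum, medium and coating differed together, 3 of the 10 genes were called, namely Fgf7, Fgfr2 and Fgfr3, each of them lower. Of all genes tested 6.01% were called higher and 13.3% lower. Of the 6 genes with at least 10 counts in every library 1, Fgfr2, was called, and 2 were in a fit limited to such genes. All 4 receptors fell whatever the size of the change, with a median log2 fold change of −1.65 beside 0.02 over all genes, and of the 10 genes 2 rose and 5 fell, where 33.3% of all genes rose and 30.8% fell. Fgf7, the called ligand, was at most 0.04 FPKM without feeders.

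The wider comparisons share these libraries. NB2i against F called 7 of the 10 genes and 3 of those 6, with 10% of all genes called higher and 17.6% lower, and Fgf10 was the only one of them that was higher, at 4.92-fold. NB2i against −F, both without feeders, called 5 of the 10 and 3 of the 6, with 11.1% of all genes called higher and 16.1% lower. There Fgfr2 was 15.8-fold lower (log2 fold change −3.98, standard error 0.12, adjusted p = 8.2e-18), Fgfr3 25.6-fold lower and Fgfr4 2.92-fold lower, and Fgf15 was 14.7-fold lower and Fgf10 13.7-fold higher. The sum of the fibroblast markers was lower in NB2i here as well, at 8.57 and 8.13 FPKM against 54.6 and 52.5. Tagln alone was at 29.7 FPKM on average in −F. Of the 18 markers 10 fell, all 10 of them called, 3 rose, 2 of them called, and 5 did not pass the test. F2i against −F called 5 of the 10 and 2 of the 6, with 11.7% of all genes called higher and 9.82% lower: Fgf7 and Fgf10 were higher and Fgf15, Fgfr2 and Fgfr3 lower.

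**Figure D4:**
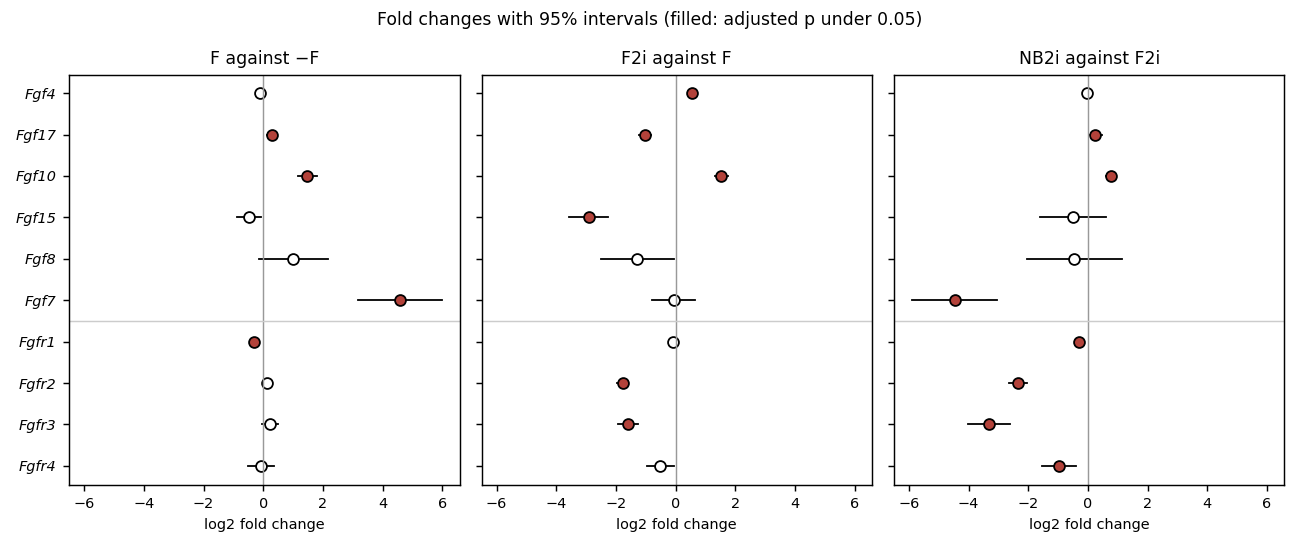
Log2 fold changes of the 10 genes (horizontal axis) with 95% intervals from the edgeR fit in 3 comparisons, ligands above the grey line and receptors below it, filled where the adjusted p was under 0.05. Fgfr2 and Fgfr3 lay left of 0 in F2i against F (−1.77 and −1.59) and again in NB2i against F2i (−2.34 and −3.32). Fgf10 lay right of 0 in all 3. Fgf7, Fgf8 and Fgf15 passed the filter only through libraries in which they were high.

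The genes around the ligands and receptors were grouped into lists by role, and the counts of each list are to be read beside the shares of all genes, of which 21.7% rose and 18.5% fell in F against −F, 27.3% and 27.4% in F2i against F, and 33.3% and 30.8% in NB2i against F2i. Among 12 other secreted ligands, 11 were in the files and 5 had enough counts to be tested. Fgf1, which binds every FGF receptor, was at 0.44 and 0.39 FPKM in −F, 1.43 and 1.21 in F, 0.41 and 0.35 in F2i, and 0 and 0.01 in NB2i, so that F stood above the rest. It rose 3.26-fold in F against −F (adjusted p = 9.7e-07) and was 3.41-fold lower in F2i than in F (adjusted p = 3.3e-07). Fgf21, a hormone-like ligand as Fgf15 is, was at 1.04 and 1.0 FPKM in NB2i and at 0.21 to 0.43 elsewhere. It was 3.78-fold higher in NB2i than in F2i (adjusted p = 9.4e-04). Fgf21 passed the filter only through its counts in NB2i, so this difference is given as a description. Fgf2, the ligand commonly added to human ES cell medium, did not pass the filter and was named after its values had been seen: it was at 0.59 and 0.65 FPKM in F, 0.37 and 0.44 in F2i, 0.07 and 0 in −F and 0 in both NB2i libraries. Of the other secreted ligands tested, 1 rose and 4 did not pass the test in F against −F. In F2i against F 1 rose and 3 fell, and in NB2i against F2i 1 rose and 1 fell. The 1 of 5 that rose each time was near or below the share of all genes. The 3 of 5 that fell in F2i against F lay above the 27.4% of all genes, but this count was not stable over the alternatives.

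The intracellular FGF homologous factors share the FGF fold but are not secreted and do not act through these receptors, and 3 of 4 could be tested. Fgf11 was at 1.42 and 1.61 FPKM in F2i and 3.16 and 2.95 in NB2i, a 2.03-fold rise (adjusted p = 2.6e-06). Fgf13 was at 2.42 and 2.03 FPKM in −F and 1.04 and 1.16 in F, a 2.06-fold fall (adjusted p = 9.8e-05), and at 0.5 and 0.38 in NB2i. In F2i against F 1 of the 3 fell and the others did not pass the test.

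Of the 8 co-receptors, decoy receptor and carrier proteins tested, 4 rose and 4 did not pass the test in F against −F, 2 rose and 3 fell in F2i against F, and 2 rose and 2 fell in NB2i against F2i. In the latter pair of comparisons these counts were close to the shares of all genes, 27.3% and 27.4%, then 33.3% and 30.8%. Flrt3, a membrane protein that binds FGF receptors, was at 1.02 and 0.86 FPKM in −F and 2.5 and 2.64 in F, a 2.77-fold rise (adjusted p = 2.6e-09), and stayed between 3.1 and 3.27 in the 2i libraries. Flrt2 was at 0.21 and 0.12 FPKM in −F and 1.5 and 1.58 in F, and was 9.56-fold higher there (adjusted p = 1.8e-12). Fgfbp1, a carrier that frees FGFs from heparan sulphate, went the other way with 2i, from 12 and 11.27 FPKM in F to 2.02 and 1.91 in F2i, 5.79-fold lower (adjusted p = 4.8e-13), and to 0.94 and 0.91 in NB2i.

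Heparan sulphate, without which FGFs bind their receptors poorly, is carried by core proteins such as the syndecans and glypicans, and all 21 genes of this list were tested. In F against −F 8 rose and 3 fell (21.7% and 18.5% of all genes), in F2i against F 10 rose and 6 fell (27.3% and 27.4%), and in NB2i against F2i 6 rose and 11 fell (33.3% and 30.8%), with medians of 0.14, 0.07 and −0.19 on the log2 scale. Sdc2, a syndecan core protein, was at 3.65 and 3.98 FPKM in −F, 4.82 and 5.27 in F, 13.54 and 14.3 in F2i, and 25.76 and 26.85 in NB2i, in the same order of conditions as Fgf10. It was 2.83-fold higher in F2i than in F (adjusted p = 1.2e-13). Hs6st2, which adds 6-O sulphate to the chain, was at 2.29 to 3.63 FPKM in the 6 libraries with serum and at 0.11 and 0.1 in NB2i, 22.8-fold below F2i (adjusted p = 3e-14). Gpc1, a glypican, was at 13.15 and 13.95 FPKM in F2i and 4.87 and 4.32 in NB2i, 2.94-fold lower (adjusted p = 3.3e-14).

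Of the 20 adaptor and RAS to ERK genes, 2 rose and 6 fell in F against −F (21.7% and 18.5% of all genes), 4 rose and 8 fell in F2i against F (27.3% and 27.4%) and 7 rose and 4 fell in NB2i against F2i (33.3% and 30.8%), each of them by less than 2-fold. Braf, a Raf kinase, was the one gene of the list called in the wider comparisons, at 12.74 and 12.46 FPKM in −F, 5.52 and 5.35 in F2i, and 5.4 and 5.43 in NB2i, 2.22-fold lower in each of the latter.

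The feedback inhibitors damp the relay after FGF signals, and several of them are switched on by it. In F2i against F 8 of 12 tested fell and 1 rose, with a median of −0.71 on the log2 scale, where 27.4% of all genes fell, and in NB2i against F2i 9 fell and 2 rose (median −0.70), where 30.8% of all genes fell. Spry4, a Sprouty protein, was at 20.34 and 19.78 FPKM in F, 0.54 and 0.74 in F2i, and 0.23 and 0.3 in NB2i, 30.4-fold lower in F2i than in F (log2 fold change −4.92, standard error 0.094, adjusted p = 4e-20). Dusp6, the phosphatase that acts on Erk, was at 35.9 and 34.82 FPKM in F, 5.18 and 5.71 in F2i, and 1.76 and 1.64 in NB2i, 6.31-fold lower in F2i than in F (adjusted p = 7.5e-19). Dusp4, a nuclear phosphatase, was at 13.15 and 13.54 FPKM in F, 2.78 and 2.99 in F2i and 0.52 and 0.44 in NB2i. Spred1 went from 20.95 and 21.81 FPKM in F to 7.27 and 7.44 in F2i. In F against −F 5 of the 12 rose and 2 fell (21.7% and 18.5% of all genes), and only Dusp5 was called, at 7.69 and 7.86 FPKM in −F and 17.78 and 17.49 in F.

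Among the transcription factors and early targets, all 11 fell in F2i against F (median −1.57, 27.4% of all genes falling) and all 11 again in NB2i against F2i (median −1.82, 30.8% of all genes). Etv4, an ETS factor induced by FGF signals, was at 53.46 and 51.29 FPKM in F, 5.4 and 5.84 in F2i, and 1.63 and 1.55 in NB2i. In −F it was at 52.82 and 52.2, and so was not altered past the test by feeders. Egr1, an immediate early gene, was at 8.58 and 8.36 FPKM in −F, 90.37 and 94.08 in F, 4.0 and 3.54 in F2i, and 1.58 and 1.62 in NB2i, 11.1-fold higher in F than in −F (adjusted p = 2.9e-22) and 23.8-fold lower in F2i than in F (adjusted p = 9.8e-23). Fos was at 147.2 and 144.37 FPKM in F and still at 77.22 and 80.96 in F2i. It was at 2.48 and 2.9 in −F and 1.72 and 1.53 in NB2i, so that both conditions with high Fos were those with feeders. Egr2 had the same order of conditions at lower levels. It was at 4.71 and 4.4 FPKM in F, 0.78 and 0.54 in F2i, 0.13 and 0.1 in −F, and 0 and 0.02 in NB2i. In F against −F 7 of the 11 rose, where 21.7% of all genes did, and 1, Myc, fell, and the 17 of 18 fibroblast markers that rose in that comparison stand beside this count, their part not tested.

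**Figure D5:**
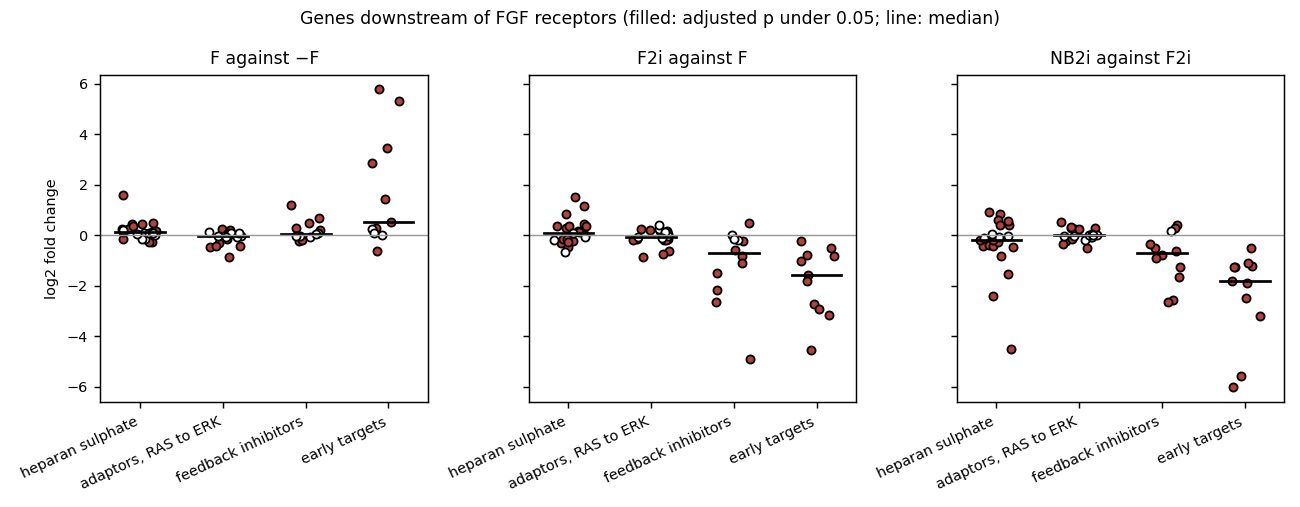
Log2 fold changes (vertical axis) of the tested genes in 4 lists in 3 comparisons, 1 point per gene, filled where the adjusted p was under 0.05, with a line at the median of each list. In F2i against F the medians were −0.71 for feedback inhibitors and −1.57 for early targets, beside −0.06 for adaptors and the RAS to ERK relay and 0.07 for heparan sulphate genes.

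The genes whose course over the 8 libraries was most like that of each member were sought by Pearson's r over 13026 genes, those that averaged 1 FPKM or more in some condition, on log2(FPKM + 1). With 4 conditions behind 8 points, many genes reach a high r, so the values only describe likeness. Fgf10 was most like Sp5, a direct target of Wnt/β-catenin signals (r = 0.9985), which was at 0.43, 1.11, 3.71 and 6.31 FPKM on average in −F, F, F2i and NB2i, and next like Copz2 and Dlgap3. Fgfr2 was most like Aif1l (r = 0.9988), Phc1, a Polycomb gene that fell from 222 FPKM in F to 109 in F2i and 58.3 in NB2i, and Dusp4, which is on the list of feedback inhibitors (r = 0.9976). Aif1l was also among the 3 genes most like Fgfr3 (r = 0.9965), with Dgkz and Adamts14.

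Fgf4 was most like Vps54 (r = 0.9942), B3gnt5 and Ppp1r9b, and B3gnt5, an enzyme of glycolipid synthesis, was at 6.86 FPKM in F and 14.1 in F2i on average. Among the genes most like Fgf15 were Ola1 (r = 0.9987) and Ptpn12. Fgf17 was most like Snx8 (r = 0.9981), Ak6 and Phc2, Fgfr1 most like Gm3002 (r = 0.9955), Ranbp1 and Grip1, and Fgfr4 most like Rab33b (r = 0.9881), Cks2 and Bmp6. Fgf7 and Fgf8, under 1 FPKM in every library, were left out of this search.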

How the data were processed

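Libraries of poly-A RNA were read on a BGISEQ-500 (single-end, 50 bases). Per the labels and the study's methods, reads were placed on mm10 by Bowtie2 and RSEM estimated gene levels (versions not given in the sources used here). The deposited expected counts are unnormalized read estimates, 29.8% of them not whole. The deposited FPKM values are those estimates scaled to transcript length and depth. Samples were grouped by their labels.

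Rounded expected counts entered edgeR 4.0.16 (R 4.3.3; quasi-likelihood, TMM factors 0.977 to 1.028) in 1 fit of all 8 samples with condition as the factor. A gene needed 10 counts or more in 2 samples, which left 15287 genes, and Benjamini-Hochberg adjustment ran over these in each comparison. "Rose" and "fell" mean adjusted p under 0.05, and "called" adds a fold change of at least 2. The code was tested on simulated data. Duplicates differed beyond sampling noise (chi-square of 1.89 to 3.71 per degree of freedom), and p-values measure only the spread between these samples.

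Members and lists were chosen with earlier results of these data known. Besides the members, genes named are up to 4 called genes per list and comparison (at least 1 FPKM in the higher condition, no overlap), the 3 genes most like each member (1 of them is not reported here), and markers. Fgf2 and the neighbours of Fgf4 were chosen after their values were seen. Alternatives were DESeq2 1.42.0, its size factors, other filters, fewer groups, a replicate block, each sample left out, limma 3.58.1 on FPKM and adjusted p under 0.01.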

Additional observations from a re-analysis of the deposited data

How the results depend on the processing

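Of 1027 member fold changes recomputed under 18 settings, 983 kept their direction and side of the threshold, 26 fell short of it, 9 newly passed it and 9 turned direction. None of the 9 that turned had passed the test. With 1 sample left out at a time they ranged from −0.303 to 0.129 for Fgfr4 in F against −F (0.078 without −F replicate 1, 0.129 without F replicate 2) and from −0.346 to 0.174 for Fgf7 in F2i against F (0.174 without F2i replicate 1). Fgf7 in NB2i against −F ranged from −3.136 to 3.179 (−0.867 without −F replicate 2, −3.136 without NB2i replicate 2). Fgf8 ranged from −2.341 to 0.325 in NB2i against F2i and from −2.602 to 0.064 in NB2i against −F, both turning without NB2i replicate 1, and from −0.719 to 0.203 in F2i against −F (0.203 without −F replicate 1, 0.083 without F2i replicate 2).

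The number of members called moved by over 1.5 times in these cases only. With at least 10 counts required in every sample, a filter that drops Fgf7, Fgf8, Fgf15 and Fgfr3, it was 1 in F against −F, 3 in F2i against F, 3 in NB2i against F, 3 in NB2i against −F and 2 in F2i against −F. With limma on log2(FPKM + 1), a scale that understates the change of low genes, it was 0 in F against −F, 2 in F2i against F, 1 in NB2i against F2i, 4 in NB2i against F and 3 in F2i against −F, with or without its filter.

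The replicate numbers did not pair the samples: the deviations of equally numbered samples had Spearman correlations of −0.078 to 0.045 over 11953 genes. Using the replicate number as a block moved 1 of 60 member results across the threshold, Fgfr4 in F2i against F, at −0.506. Over the alternatives, chosen for the lists after seeing the data, the feedback inhibitors that fell in F2i against F numbered 8 to 9 and the early targets 9 to 11. Likeness was less stable: on log2(FPKM + 0.1), none of the 3 genes most like Fgfr2 or Fgfr3 stayed among the 3. Only 1 stayed for each of Fgf10, Fgf15 and Fgfr4, and 2 stayed for Fgfr1. Depth limits Fgf7 and Fgf8, with at most 28.74 expected counts in any library.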
